A study of Mus musculus with 48 samples.

Results

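Gdf15 (growth differentiation factor 15, ENSMUSG00000038508) is 1 of the 47561 genes listed in a table of lung transcripts, and its row was chosen by its symbol. The gene was selected on its values by strain, injection and air in these same 48 mice, so its levels by these factors are given as a description without a test. Sex took no part in the choice and was tested. Lungs were collected from adult mice of the inbred strains C3H (C3H/HeN) and C57B (C57Bl/6), males (M) and females (F), and each lung gave 1 library. Each mouse received 1 intraperitoneal injection of saline or of 25 mg/kg aurothioglucose (ATG), which contains gold and blocks thioredoxin reductase. The mice were then kept for 96 h in room air or in hyperoxia, which is oxygen above 95%. Each of the 16 groups (C3HM, C57BM, C3HF or C57BF, with saline or ATG, in room air or hyperoxia) had 3 mice. The saline groups rest on the sample labels, since the description of the series mentions ATG for all mice and names another C57B substrain than the study's methods do. Alveolar type 2, alveolar type 1, club, ciliated and endothelial markers were above 0 in these lungs, with Sftpc, Ager, Scgb1a1, Tubb4b and Cldn5 as the most abundant marker of each cell type.

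GDF15 is a secreted, divergent member of the TGF-beta family that is made by stressed cells of many tissues. Its precursor is cut by furin-type convertases, and the circulating hormone signals through GFRAL and the coreceptor RET in the hindbrain, where it reduces food intake. Transcription of the gene is known to be raised by ATF4 and CHOP (Ddit3) in the integrated stress response and by p53 after DNA damage, and EGR1 and NRF2 have also been described as activators.

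Gdf15 lies on the minus strand of chromosome 8 at chr8:70629393-70632456 (GRCm38, the assembly also known as mm10), and GENCODE M21 lists it as a protein coding gene that overlaps 0 other genes. It has 2 annotated transcripts of 1545 and 1380 bases. The longer has 2 exons and begins at 70632095, the shorter has 3 exons and begins at 70632456, and their last exons end within 1 base of each other at 70629393. Of the 1821 distinct 30-base sequences in these transcripts, 0 also occur in transcripts of other genes, so reads of Gdf15 had no near-identical copy to be divided with. The 236 bases upstream of the most upstream RefSeq start at chr8:70632471-70632706 (RefSeq promoter table, GRCm38.p6, minus strand, 5′ to 3′) are given because Gdf15 and many targets of the same regulators were higher together in hyperoxia. The capitals mark TAAATA, an AT-rich sequence 24 bases before the start site at 70632456 that was picked out after the sequence had been read.

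Gdf15 upstream: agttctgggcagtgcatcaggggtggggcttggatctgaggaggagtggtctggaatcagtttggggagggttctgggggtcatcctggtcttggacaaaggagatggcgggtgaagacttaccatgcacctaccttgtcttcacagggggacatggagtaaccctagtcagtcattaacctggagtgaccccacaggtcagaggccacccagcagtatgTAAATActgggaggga

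The promoter table holds 2 windows of 300 bases for Gdf15, each from 250 bases before to 50 bases after 1 of the start sites, among 32851 windows of all genes. On both strands, the first window had 0 matches and the second had 0 matches to TGATGNAA (the ATF4 and CHOP composite, found in 3.97% of all windows), TGACGTCA (cAMP response element, 1.79%), TGANTCA (AP-1, 7.81%), TGACNNNGC (antioxidant response element, 12.4%), TATAAA (13.6%) and the p53 half-site (8.36%). CACGTG (E-box, 7.15% of windows) matched the second window 1 time and TAAATA (13.7%) the first window 1 time. The absence of these letters holds for these windows only.

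Gdf15 was low in all lungs in room air and high in all lungs in hyperoxia. Levels are in FPKM, which counts fragments relative to transcript length and to the library's mapped total. The mean was 3.68 ± 1.49 FPKM (SD, n = 24) in room air, with values from 1.67 to 7.09, and 235 ± 81.6 FPKM (n = 24) in hyperoxia, with values from 89.7 to 447. The lowest lung in hyperoxia was 12.7-fold above the highest lung in room air, and the means differed 63.7-fold. In bulk lung, a change in the number of cells of a type and a change in RNA per cell cannot be told apart.

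The same step between air conditions was present in each strain and with either injection. In saline C3H, Gdf15 was 3.69 ± 1.14 FPKM (n = 6; lowest 2.39, median 3.77, highest 5.28) in room air and 203 ± 44.2 FPKM (n = 6; lowest 162, median 189, highest 268) in hyperoxia. In saline C57B, it was 3.10 ± 0.751 FPKM (n = 6; lowest 2.10, median 3.26, highest 4.01) in room air and 195 ± 78.0 FPKM (n = 6; lowest 89.7, median 196, highest 285) in hyperoxia. These means correspond to 54.8-fold in C3H and 63.0-fold in C57B. The strains overlapped in both air conditions, and the spread among C57B mice in hyperoxia was the wider (coefficient of variation 39.9% against 21.8% in C3H).

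With ATG, Gdf15 in room air was 4.39 ± 2.08 FPKM (n = 6; lowest 2.36, median 3.36, highest 7.09) in C3H and 3.55 ± 1.71 FPKM (n = 6; lowest 1.67, median 3.11, highest 6.20) in C57B. Under hyperoxia, the ATG mice had 215 ± 33.5 FPKM (n = 6; lowest 163, median 224, highest 252) in C3H and 326 ± 89.4 FPKM (n = 6; lowest 199.7, median 328, highest 447) in C57B. The ATG mean over the saline mean was 1.19-fold and 1.14-fold in room air and 1.06-fold and 1.67-fold under hyperoxia, for C3H and C57B. C57B given ATG in hyperoxia was therefore the group with the highest level, and C3H over C57B was 0.659-fold there against 1.04-fold in saline hyperoxia. The C57B ATG and saline mice still overlapped under hyperoxia, between 199.7 and 285 FPKM.

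**Figure D1:**
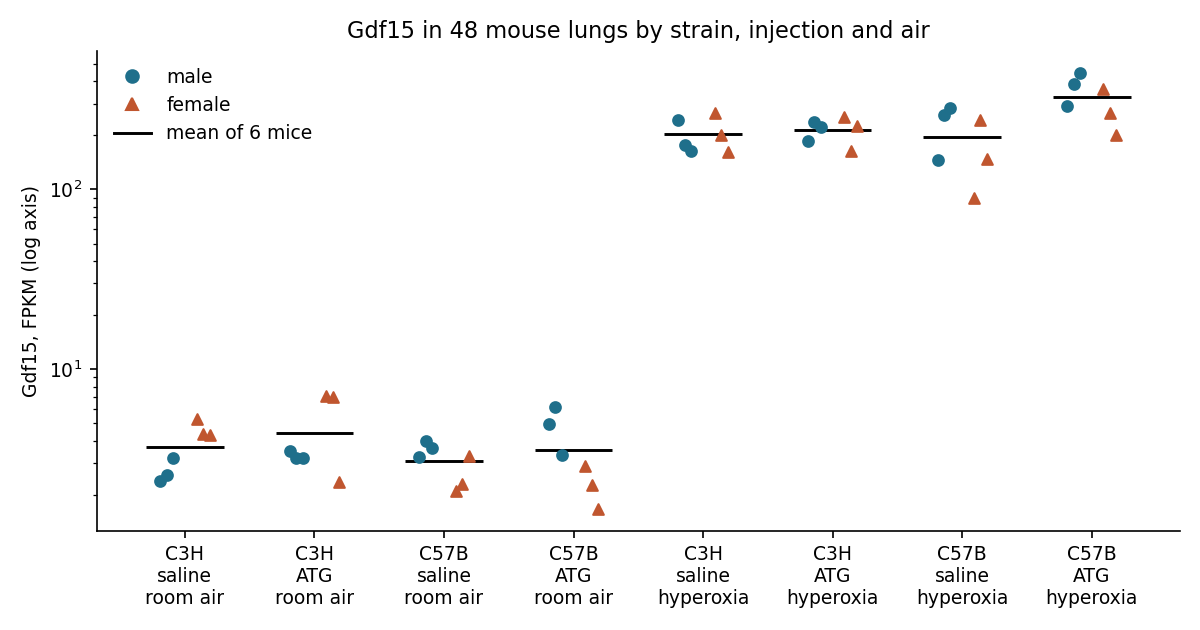
Gdf15 in FPKM (log axis) in each of 48 lungs, by strain, injection and air, with males as circles, females as triangles and the mean of 6 mice as a line. The 24 lungs in room air lie between 1.67 and 7.09 FPKM and the 24 lungs in hyperoxia between 89.7 and 447 FPKM.

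The 16 groups were ordered by their means of 3 mice. The 8 hyperoxia groups came first, from C57BM with ATG (374 ± 78.0 FPKM) and C57BF with ATG (277 ± 82.1) to C57BM with saline (230.0 ± 73.7), C3HM with ATG (215 ± 26.2), C3HF with ATG (214 ± 46.0), C3HF with saline (209.8 ± 53.3), C3HM with saline (195 ± 43.5) and C57BF with saline (161 ± 78.4). The room air groups followed, from C3HF with ATG (5.47 ± 2.70 FPKM) and C57BM with ATG (4.82 ± 1.44) to C3HF with saline (4.65 ± 0.541), C57BM with saline (3.64 ± 0.383), C3HM with ATG (3.31 ± 0.167), C3HM with saline (2.74 ± 0.433), C57BF with saline (2.56 ± 0.629) and C57BF with ATG (2.28 ± 0.612). Neighbours in this order overlapped in 13 of 15 pairs. The exceptions were the step between hyperoxia and room air, and C3HF with saline above C57BM with saline in room air. With the sexes together, 6 of 7 neighbouring pairs of groups overlapped, again with the step between air conditions as the exception.

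Within hyperoxia, the individual mice varied most in C57B. The C57BF mice given saline had 89.7, 245 and 147 FPKM and those given ATG had 363, 267 and 199.7 FPKM. The C57BM mice had 146, 258 and 285 FPKM with saline and 292, 384 and 447 FPKM with ATG, so that the males given ATG all lay above the males given saline. The C3HM mice had 245, 177 and 164 FPKM with saline and 187, 238 and 222 FPKM with ATG. The C3HF mice had 268, 199.7 and 162 FPKM with saline and 252, 163 and 226 FPKM with ATG. In C3H of both sexes the injections overlapped over most of their range.

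**Figure D2:**
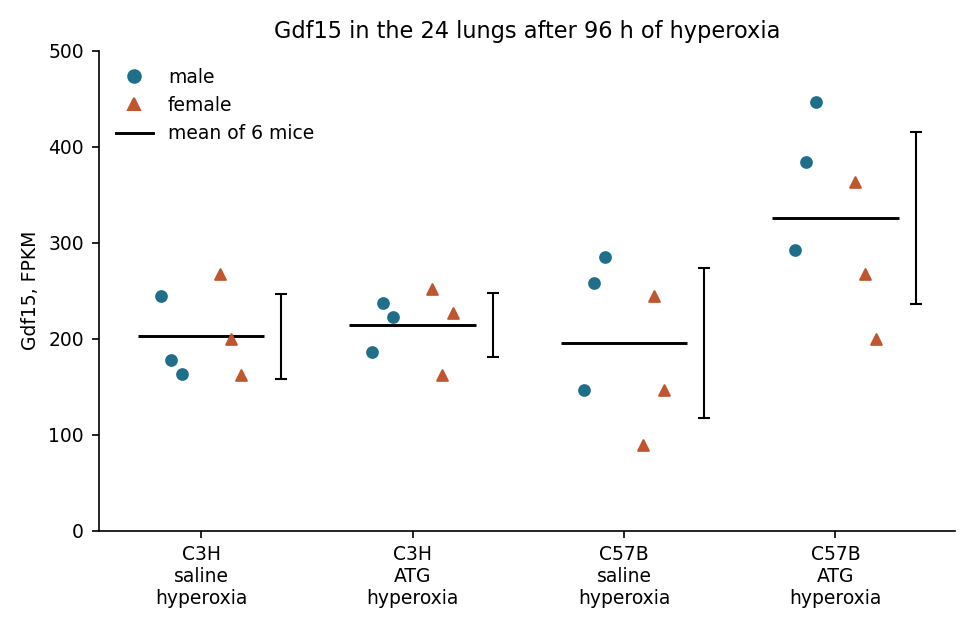
Gdf15 in FPKM (linear axis from 0) in the 24 lungs after hyperoxia, by strain and injection, with males as circles, females as triangles, the mean of 6 mice as a line and its SD as the bar beside it. C57B given ATG has the highest mean, 326 FPKM, and overlaps with C57B given saline.

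Differences were also computed on log2(FPKM + 1) with limma, in which the 16 group means were fitted over all 48 mice. On this scale, differences of genes with few FPKM come out too small. Between hyperoxia and room air, the difference of Gdf15 was 5.47 in saline mice and 5.80 in ATG mice, which placed it 2nd of 16994 genes both times. By strain, it was 5.45 in saline C3H (1st of 16994 genes) and 5.49 in saline C57B (3rd), and these differ by -0.04 (C3H minus C57B). ATG minus saline was 0.12 in room air and 0.45 under hyperoxia, and the latter was 0.09 in C3H and 0.80 in C57B. At baseline (saline and room air), C3H minus C57B was 0.18. As background to these values, 32.4% of the genes tested were higher and 29.1% lower in hyperoxia than in room air in saline mice at an adjusted p under 0.05 (5512 and 4952 genes, and 5034 and 5558 after scaling each library by its median ratio to the genes' geometric means). With ATG in room air, 0.0177% of genes were higher and 0.00588% lower, which is 4 genes, compared to 1248 genes at an unadjusted p under 0.05. These 4 were Marco, Nr1d2 and Tspan4 (higher) and Cabp2 (lower), which were named after their values were seen. Without the mouse C3HM 2, 284 genes were called for ATG in room air, and the ATG difference of Gdf15 there was 0.11. With ATG under hyperoxia, 3.95% of genes were higher and 1.43% lower, or 671 and 243 genes. With the same median ratio scaling, these became 276 higher and 456 lower. For ATG in room air, 0 members were called in each of the 10 gene lists described here.

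The sum of FPKM differed with air, with a median of 635719 in room air and 550802 in hyperoxia, and Scgb1a1, the club cell secretory protein, made up a median of 18.1% and 4.61% of it. With that scaling, with quantile normalization and after leaving out any single mouse, the hyperoxia difference of Gdf15 in saline mice was between 5.38 and 5.56, and with a pseudocount of 0.1 in place of 1, which was added after the results were seen, it was 5.81. Over the same settings with a pseudocount of 1, the small differences moved more in relation to their size. The ATG difference was between 0.07 and 0.22 in room air, and under hyperoxia between 0.01 and 0.19 in C3H and between 0.62 and 0.98 in C57B. The strain difference at baseline was between 0.13 and 0.38, and the strain difference in the hyperoxia response lay between -0.22 and 0.14 and turned its sign in 7 of the 48 fits that left out a mouse.

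Sex was tested for Gdf15 because the gene had not been chosen on it. It was taken from the labels, since genes of the X and Y chromosomes are at 0 in all mice. Over all groups, males minus females was 0.14 ± 0.10 (SE) on the log2 scale (limma, adjusted p = 0.423), among 4.84% of genes higher and 7.56% lower in males (823 and 1285 genes, and 1154 and 1035 with median ratio scaling). For the hyperoxia response in saline mice, males minus females was 0.34 ± 0.30 (limma, adjusted p = 0.508), among 1.44% of genes with a higher and 0.365% with a lower response in males (244 and 62 genes, and 69 and 105 with median ratio scaling). The median of this difference over all genes was 0.13, and 0.01 with that scaling. The 306 genes called for it became 43 without C57BM 21, 2368 without C3HM 2 and 6 when only the mice of the comparison were fitted. Neither difference passed the threshold, and errors of this size do not show that the sexes were alike. Males had the higher mean in 5 of 8 combinations of strain, injection and air and females in 3, and these followed strain. In C57B males were higher in all 4 combinations (differences in mean log2(FPKM + 1) of 0.39 to 0.81), and in C3H females were higher in 3 of 4 (-0.60, -0.48 and -0.10, against 0.03 in ATG hyperoxia). The overall value of 0.14 is thus an average over opposite directions, and the difference between the strains in this was not tested. The sexes did not overlap in 2 of the 8. In C3H with saline in room air, females had the higher values (4.65 ± 0.541 against 2.74 ± 0.433 FPKM). In C57B with ATG in room air, males had the higher values (4.82 ± 1.44 against 2.28 ± 0.612 FPKM). In both of these the exact permutation p was 0.1 (two-sided, n = 3 and 3), the smallest this design allows, and 0.4 after adjustment over the 8 comparisons.

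Little transcript of the coreceptor of GDF15 was measured in the lung, and its receptor gave no value above 0. Gfral, the receptor, was listed at 0 in all 48 mice, as were 20454 of the genes in the table, and without counts such a 0 cannot be told from a gene that was not estimated. Ret, the coreceptor tyrosine kinase, was 0.778 ± 0.176 FPKM (n = 12) in saline mice in room air and 0.640 ± 0.201 (n = 12) in hyperoxia, a difference of -0.12 on the log2 scale that did not pass the threshold (limma, adjusted p = 0.162). Among the related GDNF family receptors, Gfra2 was lower in hyperoxia (6.30 ± 2.39 against 2.39 ± 0.626 FPKM, log2 difference -1.06) and Gfra4 was also lower (-0.44). Gfra1 was 3.76 ± 1.90 FPKM in room air and 4.53 ± 1.35 in hyperoxia and did not pass (limma, adjusted p = 0.124), and Gfra3 was below the level tested.

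The 5 listed proteases, 4 of them convertases that can mature such precursors, were all higher in hyperoxia than in room air in saline mice. Of all genes, 32.4% were higher. The log2 differences of the 5 had a median of 0.51, compared to 0.01 over all genes. These are means over strains and sexes, and the response of Pcsk5 was -0.16 in C3H and 1.18 in C57B and that of Pcsk7 0.51 in males and -0.10 in females. Furin, the main convertase of the secretory pathway, was 27.4 ± 5.57 FPKM (n = 12; 17.1 to 35.4) in room air and 57.9 ± 19.4 FPKM (n = 12; 34.2 to 91.1) in hyperoxia, a log2 difference of 1.00. Mmp14, a membrane metalloproteinase, rose by 1.02, from 31.4 ± 7.78 to 68.1 ± 28.1 FPKM. The convertases Pcsk5 (0.51), Pcsk6 (0.44) and Pcsk7 (0.21) were higher by less, and Pcsk7 did not pass with median ratio scaling (limma, adjusted p = 0.0511). With ATG under hyperoxia, where Gdf15 had its highest level, 2 of the 5 were lower than with saline (40%, compared to 1.43% of all genes). These were Furin (-0.33, 44.3 ± 7.36 FPKM) and Mmp14 (-0.39, 48.2 ± 5.80 FPKM). When each mouse was left out in turn, the count was between 0 and 2, and it was 0 without C57BM 19 and without C57BM 24.

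Other ligands of the TGF-beta family were more often lower than higher in hyperoxia. Of 32 listed, 19 passed the filter of being at 1 FPKM or above in 3 or more mice. These 19 include Bmp1, which encodes a protease and not a ligand. In hyperoxia, 5 of these were higher and 11 lower (26.3% and 57.9%, compared to 32.4% and 29.1% of all genes). The median log2 difference of the list was -0.24. The largest rises were of Inhbb (1.84, 6.94 ± 2.45 to 29.9 ± 17.0 FPKM) and Inhba (1.13, 0.300 ± 0.219 to 2.12 ± 1.55 FPKM), which encode activin subunits, and of Tgfb2 (0.41). The mean of Inhba in saline room air lay below the level of the filter. Inhba passed through mice in which it was higher, so its place among the 5 follows in part from the filter. The largest falls were of Bmp6 (-1.38, 53.2 ± 13.3 to 20.2 ± 7.35 FPKM) and Bmp5 (-1.06), which are bone morphogenetic proteins. The 3 ligands with the highest mean FPKM were Bmp6, Tgfb1 and Bmp4. Tgfb1 was 41.7 ± 8.71 and 58.8 ± 26.9 FPKM (log2 difference 0.39, and with median ratio scaling adjusted p = 0.0585, limma) and Bmp4 fell by 0.86. In room air, Gdf15 was thus below each of these 3 ligands, and in hyperoxia it was above each of them. Lefty1, an inhibitor of Nodal signaling, was higher with ATG under hyperoxia (0.51, 2.72 ± 0.987 to 4.24 ± 1.28 FPKM).

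The list of regulators held transcription factors, kinases and other proteins of stress responses, and was wider than the activators of Gdf15 named above. Its members were mostly higher in hyperoxia, with 16 of 20 higher and 1 lower. These are 80% and 5%, compared to 32.4% and 29.1% of all genes, and the median log2 difference of the list was 0.56. Atf4, the transcription factor of the integrated stress response, was 108 ± 17.0 FPKM (n = 12; 77.0 to 131) in room air and 345 ± 69.9 FPKM (n = 12; 273 to 458) in hyperoxia, without overlap (log2 difference 1.66). Ddit3, which encodes CHOP, rose by 1.01 from 23.6 ± 4.03 to 49.7 ± 13.9 FPKM. Atf3, a stress-induced factor of the same family, rose by 2.22 (9.18 ± 4.95 to 45.8 ± 20.5 FPKM) and Egr1, an immediate early gene, by 1.62 (22.2 ± 9.65 to 78.3 ± 50.9 FPKM). The transcript of p53 itself, Trp53, rose by 0.34 (25.6 ± 3.87 to 32.6 ± 3.53 FPKM), Nfe2l2, which encodes NRF2, by 0.27, and Xbp1, a factor of the unfolded protein response, by 0.55. Jun, a subunit of AP-1, fell by 0.28. With ATG under hyperoxia, Trp53 (0.34, 41.7 ± 6.43 FPKM) and Atf4 (0.28, 419 ± 79.8 FPKM) were higher and Jun (-0.23) was lower than with saline. These are 10% and 5% of the 20, compared to 3.95% and 1.43% of all genes. Atf4 did not pass with median ratio scaling (limma, adjusted p = 0.0997). Ddit3 was 62.7 ± 13.6 FPKM with ATG and did not pass (0.35; limma, adjusted p = 0.0603).

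The targets of the integrated stress response and of p53 had log2 differences of 1.30 and 1.36 as medians in hyperoxia. Of the 31 stress response targets tested, 27 were higher and 0 lower (87.1% and 0%, compared to 32.4% and 29.1% of all genes). The rises were led by Trib3 (3.02, 2.77 ± 0.429 to 32.6 ± 15.5 FPKM), a pseudokinase induced by CHOP, Mthfd2 (2.61), a mitochondrial folate enzyme, and Slc7a5 (2.46), an amino acid transporter. Of 22 p53 targets, 18 were higher and 3 lower (81.8% and 13.6%, compared to the same shares of all genes). Cdkn1a, the inhibitor of cyclin-dependent kinases also known as p21, was 42.1 ± 12.7 FPKM (n = 12; 26.8 to 66.6) in room air and 649 ± 113 FPKM (n = 12; 508 to 839) in hyperoxia, and its difference of 3.95 had the smallest adjusted p of all genes tested (limma, 1.59e-31). Aen, an exonuclease (2.64), and Ccng1, cyclin G1 (2.52), followed. Sesn1 (-0.86) and Rrm2b (-0.49), which are also p53 targets, were lower. With ATG under hyperoxia, 5 of 22 p53 targets were higher and 0 lower (22.7%, compared to 3.95% of all genes higher; 2 with a pseudocount of 0.1 and 3 with quantile normalization or median ratio scaling), with Ddit4l (0.70), Gtse1 (0.43) and Phlda3 (0.33) the largest, and 0 of 31 stress response targets passed. When each mouse was left out in turn, these counts were between 3 (without C57BM 24) and 8 (without C57BM 21) for p53 targets and between 0 and 2 for stress response targets.

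Of 20 NRF2 targets, 18 were higher and 1 was lower in hyperoxia (90% and 5%, compared to 32.4% and 29.1% of all genes). The median log2 difference of the list was 1.15. Gclc, the catalytic subunit of glutathione synthesis, rose by 2.62, Srxn1, sulfiredoxin, by 2.23 and Hmox1, heme oxygenase, by 2.14, whereas Gstm1, a glutathione transferase, fell by 1.03. Another list held 18 genes of protein folding and degradation in the endoplasmic reticulum, which are called chaperones here for short. Of these, 5 were higher and 10 lower (27.8% and 55.6%, compared to 32.4% and 29.1% of all genes, with a median of -0.17). The largest rises among them were of Herpud1 (0.56), Edem1 (0.34) and Sel1l (0.23), which serve degradation of misfolded proteins, although Sel1l did not pass with median ratio scaling (limma, adjusted p = 0.0974). The largest falls were of Hsp90b1 (-0.97) and Pdia4 (-0.87), which serve folding. With ATG under hyperoxia, Sdf2l1 (0.37), Pdia4 (0.29) and Pdia6 (0.19) of the chaperones were higher than with saline (16.7%, compared to 3.95% of all genes). Me1 (0.25) and Taldo1 (0.18) of the NRF2 targets were also higher (10% of that list). With median ratio scaling 0 of these 5 passed.

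**Figure D3:**
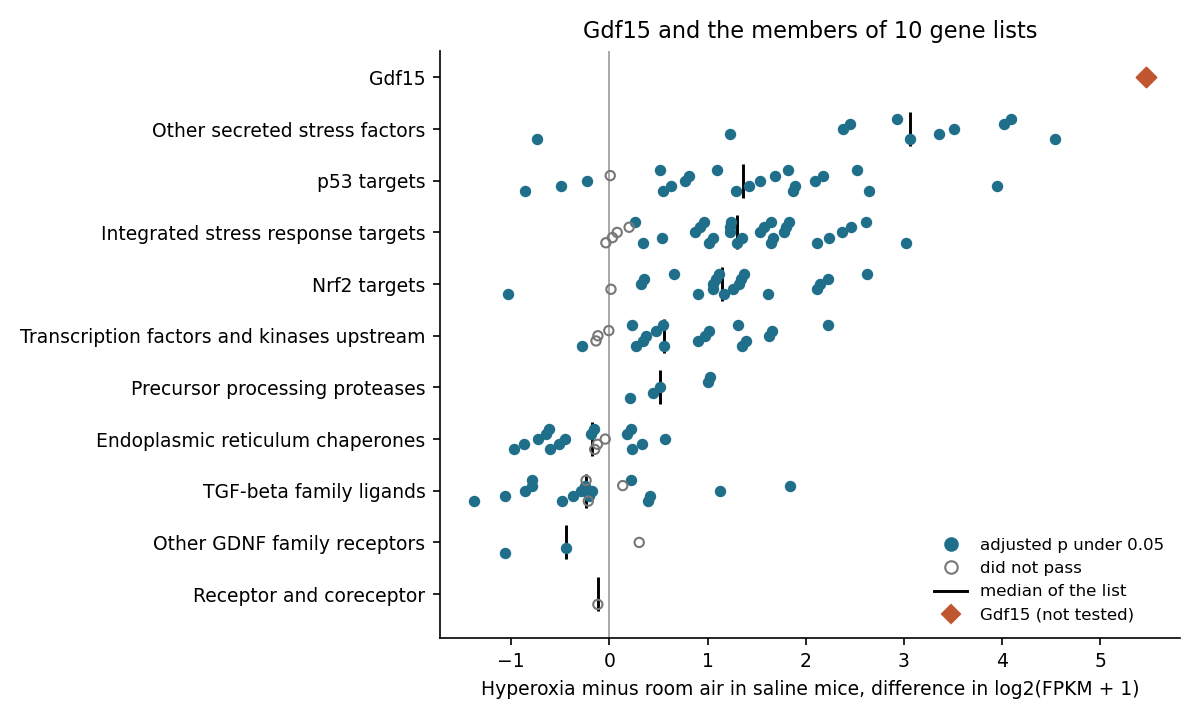
Difference in log2(FPKM + 1) between hyperoxia and room air in saline mice for Gdf15 (diamond, not tested) and for the tested members of 10 gene lists, with filled points at an adjusted p under 0.05, open points otherwise and a line at the median of each list. Gdf15 lies at 5.47, to the right of all list members, of which Ccl2 is the nearest at 4.55. This order holds for this scale, on which differences of genes with few FPKM come out too small. Ereg, for example, was at most 0.373 FPKM in saline room air, with means of 22.5 (C3H) and 76.5 FPKM (C57B) in saline hyperoxia.

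Other secreted stress factors were also higher in hyperoxia, and in saline mice several of them varied more among mice than Gdf15 did. Of the 11 other factors tested, 10 were higher and 1 lower in hyperoxia (90.9% and 9.09%, compared to 32.4% and 29.1% of all genes). The median log2 difference of the list was 3.06. Ereg, at most 0.489 FPKM in room air, passed the filter only through mice in hyperoxia, so its place among the 10 follows in part from the filter. On the log2(FPKM + 1) scale, Ccl2 (4.55) and Cxcl1 (4.09), which attract monocytes and neutrophils, and Il6 (4.02), an inflammatory cytokine, had the largest rises in the list. Vegfa, which acts on endothelium, fell by 0.74. In the 12 saline mice in hyperoxia, Gdf15 varied 3.18-fold between the lowest and the highest lung, with a coefficient of variation of 30.4%. Ccl2 varied 319.9-fold (3.09 to 989 FPKM, coefficient of variation 136%), Cxcl1 249-fold (2.79 to 693 FPKM, 149.5%) and Il6 229-fold (1.76 to 403 FPKM, 146%). The coefficient of Hbegf, an EGF receptor ligand, was 28.6%, those of Vegfa and Areg, another EGF receptor ligand, were 34.9% and 35.6%, and the other 8 factors, Ccl2, Cxcl1 and Il6 among them, lay between 41.4% and 149.5%. Within the strains (n = 6 each) the order of the 12 genes was not the same. The coefficient of Gdf15 was the lowest in C3H (21.8%, against 25.6% for Hbegf and 27.5% for Areg) and only the fifth lowest in C57B (39.9%), above Angptl4 (20.0%), Hbegf (25.1%), Vegfa (34.6%) and Areg (37.4%). All 12 saline mice in hyperoxia were above the highest saline mouse in room air for Gdf15 and also for Lif, Areg, Hbegf, Ereg and Lcn2. For Ccl2 10 of 12 were, and for Cxcl1 and for Il6 11 of 12. The ATG mice in room air reached 256 FPKM of Lcn2 and 0.489 FPKM of Ereg, above the lowest of these 12 mice (194 and 0.384 FPKM). In the 12 ATG mice in hyperoxia, the spread of most factors was smaller. There the coefficient of variation was 32.1% for Gdf15, above those of Hbegf (18.8%), Angptl4 (19.3%), Vegfa (23.6%) and Lif (28.0%), and 65.3% for Ccl2, which varied 9.32-fold. All 12 of these mice were above the highest ATG mouse in room air for Gdf15, Ccl2, Cxcl1 and Il6. For saline and for ATG mice, the share of all genes that separate by air in this way is not given here. These counts of mice are therefore a description only.

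In 2 of the 4 saline groups in hyperoxia, a single mouse had far more Ccl2 than its group mates. The mouse C57BM 19 had 989 FPKM of Ccl2 and 146 FPKM of Gdf15, and its group mates C57BM 20 and C57BM 21 had 24.1 and 15.1 FPKM of Ccl2 and 258 and 285 FPKM of Gdf15. The mouse C3HF 33 had 700 FPKM of Ccl2 and 162 FPKM of Gdf15, and its group mates C3HF 31 and C3HF 32 had 31.6 and 28.7 FPKM of Ccl2 and 268 and 199.7 FPKM of Gdf15. Both mice thus had the highest Ccl2 and the lowest Gdf15 of their group. These mice were singled out after their values were seen. Their summed neutrophil markers were 4853 FPKM in C57BM 19 and 6265 FPKM in C3HF 33, compared to 281 and 161 FPKM in C57BM 20 and C57BM 21 and 179.6 and 1474 FPKM in C3HF 31 and C3HF 32, and the part of this in the level of Gdf15 was not tested. All 3 C57BF mice given saline had high Ccl2 (354, 238 and 559 FPKM), and C57BF 44, with the lowest of these, had the highest Gdf15 of its group, 245 FPKM against 89.7 and 147 FPKM. The C3HM mice given saline had between 3.09 and 6.23 FPKM of Ccl2. The 12 ATG mice in hyperoxia had between 35.7 and 333 FPKM of Ccl2. Over the 24 mice in hyperoxia, Pearson's r between the log2 values of Gdf15 and each factor was -0.37 for Ccl2, -0.55 for Cxcl1 and -0.52 for Il6. The 24 mice include both strains, sexes and injections, and these correlations are given as a description.

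**Figure D4:**
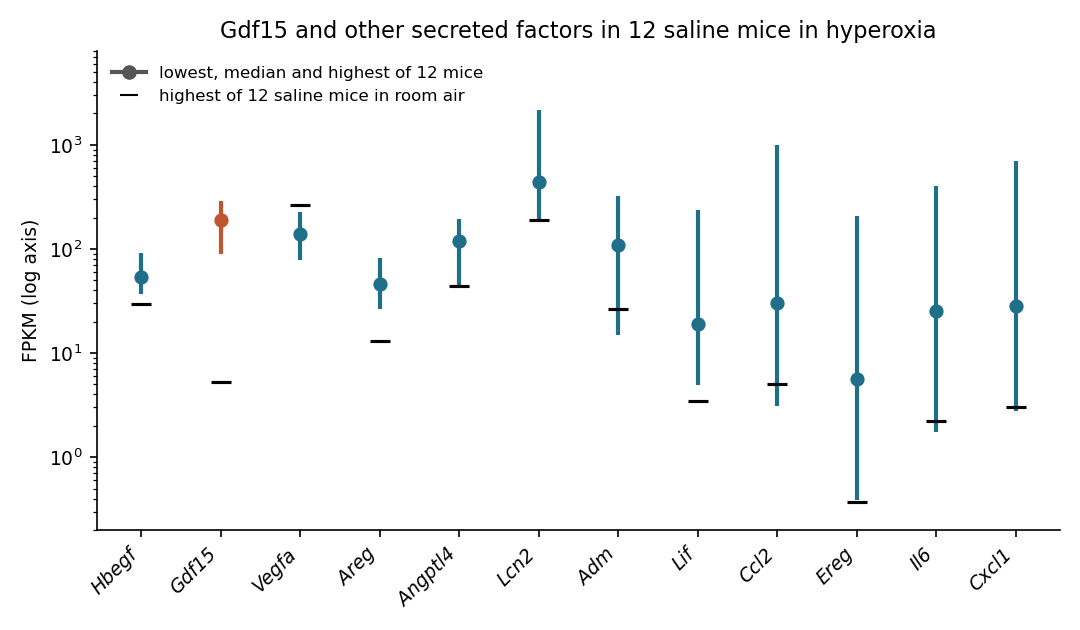
FPKM (log axis) of Gdf15 and 11 other secreted factors in the 12 saline mice in hyperoxia, ordered by coefficient of variation, with a bar from the lowest to the highest mouse, a point at the median and a dash at the highest of the 12 saline mice in room air. The bar of Gdf15 is short, from 89.7 to 285 FPKM, and lies above its dash, whereas those of Ccl2 and Cxcl1 cross theirs.

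For the hyperoxia response, the strains differed in Hmox1 (1.43 in C3H and 2.86 in C57B), Slc7a5 (1.91 and 3.00), Pcsk5 (-0.16 and 1.18), Furin (0.72 and 1.29) and Mmp14 (0.63 and 1.41). These are 5 of the 17 genes, among 70 named genes tested, that passed the test of the difference (limma). Of the 17, 8 had a lower response in C3H, these 5 among them. The other 9 had a higher response in C3H, such as Isyna1 (0.16 in C3H and -1.16 in C57B) and Sdf2l1 (0.02 and -0.92). Of all genes, 13.3% had a higher and 4.37% a lower response in C3H than in C57B at an adjusted p under 0.05 (2252 and 742 genes, and 1306 and 1561 with median ratio scaling). The median difference over all genes was 0.15, and 0.00 with that scaling. The values of Gdf15, 5.45 in C3H and 5.49 in C57B, stand beside these untested.

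The genes whose pattern was most like that of Gdf15 were found by Pearson's r in log2(FPKM + 1) over the 48 mice, among 12948 genes with a mean of at least 2 FPKM. The mice fall into separate clusters by air, so r mostly follows the step between air conditions, and 343 genes reached 0.9. The highest was Cdkn1a (r = 0.98), followed by Phlda3, Zmat3, Tnfrsf10b, Ccng1, Sars, Adm2, Tmem43, Bax and Aen (0.98 to 0.97). Of these, Cdkn1a, Phlda3, Zmat3, Tnfrsf10b, Ccng1, Bax and Aen were in the list of p53 targets and Sars, a seryl-tRNA synthetase, in that of the integrated stress response. Adm2, a peptide hormone of the calcitonin family, was 0.218 ± 0.205 FPKM in saline room air and 11.2 ± 3.60 FPKM in saline hyperoxia. At most 0.724 FPKM in room air, Adm2 passed the filters only through mice in hyperoxia, so its place among the 10 follows in part from the filters. Tmem43, a membrane protein of the nuclear envelope, was 36.7 ± 4.30 and 113 ± 17.8 FPKM in the same groups. The median r of the lists was 0.92 for p53 targets, 0.91 for integrated stress response targets, 0.87 for NRF2 targets, 0.82 for secreted factors and -0.37 for chaperones. With median ratio scaling 8 of the 10 genes remained among the 10 highest, and by Spearman's rho 1 of them did.

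Within the 24 mice in hyperoxia, r with Gdf15 was 0.55 for Cdkn1a, 0.60 for Atf4, 0.66 for Trib3 and 0.77 for Ddit3. Over whole lists, the median r there was 0.48 for 22 p53 targets (-0.58 to 0.73), 0.44 for 29 integrated stress response targets (-0.41 to 0.84), 0.21 for 20 regulators (-0.42 to 0.77), 0.09 for 20 NRF2 targets (-0.56 to 0.63), -0.09 for 18 chaperones (-0.42 to 0.55) and -0.36 for 11 secreted factors (-0.55 to 0.47). For 12 genes of the list of TGF-beta family ligands, this median was 0.18 (-0.71 to 0.72). Each of these lists thus held members of both signs. These mice include both strains, sexes and injections, and over the 48 mice with the mean of each of the 16 groups subtracted r was 0.36 for Cdkn1a, 0.20 for Atf4, 0.59 for Trib3 and 0.54 for Ddit3. In this form the median was 0.29 for p53 targets and for integrated stress response targets, 0.22 for regulators, 0.09 for chaperones, -0.20 for NRF2 targets (-0.52 to 0.46) and -0.33 for secreted factors. It was also 0.29 for 12 genes of the list of TGF-beta family ligands (-0.40 to 0.62), and 0.06 over all genes compared. Within the 24 mice in room air r was 0.16 for Cdkn1a. Of all genes compared over the 48 mice with the group means subtracted, the highest r with Gdf15 was 0.78, for Syn2, a synapsin. It was followed by Ltbp3 (0.70), which binds latent TGF-beta, Pbxip1 (0.70), Olfml3 (0.68) and Ralgps2 (0.67). The mean FPKM of all 5 was lower in saline hyperoxia than in saline room air, and Syn2 was 3.10 ± 1.34 FPKM in saline room air and 1.74 ± 1.14 FPKM in saline hyperoxia.

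**Figure D5:**
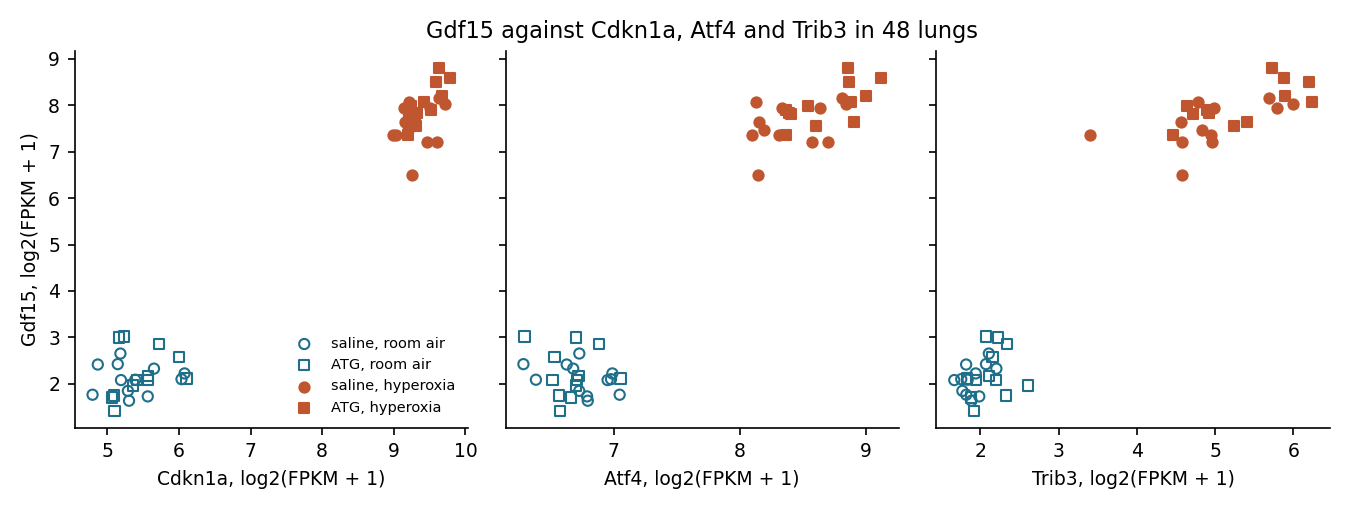
Gdf15 against Cdkn1a, Atf4 and Trib3, all in log2(FPKM + 1), in each of 48 lungs, with open symbols for room air, filled symbols for hyperoxia, circles for saline and squares for ATG. The mice form a cluster for each air condition in all 3 panels, and within hyperoxia r was 0.55 for Cdkn1a, 0.60 for Atf4 and 0.66 for Trib3.

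The 6 tested genes next to Gdf15 on chromosome 8 differed by at most 0.66 between air conditions in saline mice as the mean of both strains, although Isyna1 differed by -1.16 in C57B and 0.16 in C3H. On its left, Lrrc25 (7909 bases away) was higher by 0.66, Ssbp4 (20520 bases away) by 0.34, and Isyna1 (32102 bases away) was lower by 0.50 (log2 difference -0.50) in hyperoxia. On its right, Pgpep1 (13978 bases away) differed by 0.21 and did not pass (limma, adjusted p = 0.0932), Lsm4 (40791 bases away) was higher by 0.61, and Jund (66492 bases away) differed by -0.00 (limma, adjusted p = 0.993). The nearest genes on both sides, Lrrc25, a leucine-rich repeat membrane protein, and Pgpep1, a peptidase, had mean levels of 8.24 and 8.11 FPKM in saline hyperoxia.

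Markers of several cell types differed with air as well, and their counts stand against the 32.4% of all genes that were higher and the 29.1% that were lower. The 7 markers of transitional alveolar epithelium (keratins and other genes of injured alveoli, with Lgals3 the most abundant and none at 0) were all higher in hyperoxia, and their summed level was 729 ± 101 FPKM (n = 12) in saline room air and 2252 ± 397 FPKM (n = 12) in saline hyperoxia. Of 7 alveolar type 2 markers (Sftpc the most abundant), 6 were lower and 1 higher, and their sum was 36104 ± 7664 and 11367 ± 4154 FPKM. Club cell markers (Scgb1a1 the most abundant) were lower in 3 of 4, and their sum was 121168 ± 45186 and 23244 ± 11284 FPKM. Erythrocyte markers (Hbb-bs the most abundant, Alas2 listed at 0) were lower in 4 of 4 tested, with sums of 17086 ± 16910 and 812 ± 468 FPKM, and cardiac muscle markers (Myl7 the most abundant) in 5 of 6, with sums of 289 ± 320.5 and 34.9 ± 22.7 FPKM. Neutrophil markers (S100a9 the most abundant) were higher in 5 of 5, with sums of 341 ± 221 and 2003 ± 2224 FPKM, and the sum was between 1474 and 6265 FPKM in 6 of the 12 saline mice in hyperoxia (C57BM 19, C3HF 32 and 33 and C57BF 43 to 45) and between 161 and 281 FPKM in the other 6. Recruited monocyte and macrophage markers (Ly6c2 the most abundant) were higher in 4 of 6, with sums of 216 ± 77.8 and 586 ± 250.1 FPKM. Alveolar macrophage markers (Chil3 the most abundant) were higher in 6 and lower in 2 of 8, alveolar type 1 markers lower in 4 of 6, endothelial markers higher in 1 and lower in 2 of 5, ciliated markers higher in 1 and lower in 2 of 4, and fibroblast and muscle markers higher in 2 of 4. Over the 24 mice in hyperoxia, r between Gdf15 and the summed level was -0.76 for recruited monocytes and macrophages, -0.57 for neutrophils, -0.42 for transitional epithelium, 0.38 for alveolar type 2 and 0.60 for fibroblasts and muscle. In ATG hyperoxia, the summed recruited monocyte and macrophage markers were 379 ± 98.5 FPKM and the neutrophil markers 758 ± 730 FPKM. Compared to saline hyperoxia, 3 of 6 recruited monocyte and macrophage markers and 4 of 8 alveolar macrophage markers were lower and 0 of 5 neutrophil markers were called. Of all genes, 1.43% were lower and 3.95% higher in this comparison. In ATG room air, the neutrophil sum was 721 ± 1086 FPKM, with 1571, 1804 and 3620 FPKM in the C57BM mice and at most 275 FPKM in the other 9. The part of these shifts in the level of Gdf15 was not tested.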

How the data were processed

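Lungs of 48 mice were sequenced after polyA selection, with alignment to mm10 by GSNAP and FPKM from Cufflinks, both run by the authors. The authors deposited 1 table of FPKM values, with a column for each mouse, and no counts were used here. Depth is unknown, which leaves counting error out, and errors are the spread between mice. Genes of chromosomes X, Y and M were at 0 in all mice, and Akap5, with a failed estimate in 7 mice, was not used. With limma 3.58.1 (R 4.3.3), log2(FPKM + 1) was fitted as 16 group means for the 16994 genes at 1 FPKM or above in 3 or more mice, with a trend in eBayes and Benjamini-Hochberg adjustment at 0.05. Effects were averaged over strains and sexes. The fit was tested on simulated data with known changes. Gdf15, the gene lists and the tests were chosen with earlier results of these data known.

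Genes were named by a rule, and 1 gene of the list of secreted factors is not reported here. It took the receptors and proteases, 8 regulators, up to 3 rises and 2 falls of each other list for hyperoxia and for ATG, 3 flanking genes on each side, the ligands with the 3 highest means and the genes most like Gdf15. Alternatives, of which the levels of Gdf15 were given the pseudocount, the normalizations and the left-out mice, were a pseudocount of 0.1, other filters (above 0, or at 0.1 FPKM or above, in 3 or more mice), quantile normalization, median ratio scaling, eBayes without trend, only the mice of a comparison, and leaving out each mouse in turn. Nothing in the labels gives a batch, and 0 pairs of mice had identical values. Mice are numbered 1 to 48 and share no number between groups. P-values measure the spread between these mice.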

Additional observations from a re-analysis of the deposited data

Results flagged for a closer look

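For Gdf15, the gap between the outermost mouse and its neighbour was taken as a share of the range of its group of 6 mice. The highest share in the 8 groups was 0.319, for C3HF 25 among the saline C3H mice in room air. These shares are given as a description without a test. Each group holds both sexes, which did not overlap in saline C3H in room air (4.65 ± 0.541 FPKM in females and 2.74 ± 0.433 in males). Whether single mice stood apart within a sex was not tested.

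Of 70 named genes tested beside Gdf15, 17 had a hyperoxia response in saline mice that differed between the strains (limma, adjusted p under 0.05 for the difference itself), where 13.3% of all genes had a higher and 4.37% a lower response in C3H. In log2 units as C3H minus C57B, the difference was -0.57 for Furin, -1.34 for Pcsk5, -0.78 for Mmp14, -0.71 for Tgfb2, -1.09 for Slc7a5, -0.51 for Srxn1, -1.42 for Hmox1 and -0.66 for Taldo1, whose response was lower in C3H. It was 0.97 for Bmp6, 0.79 for Bmp5, 0.72 for Rrm2b, 0.39 for Hsp90b1, 0.65 for Pdia4, 0.94 for Sdf2l1, 1.32 for Isyna1, 0.55 for Ssbp4 and 0.71 for Pgpep1. The median difference of all genes was 0.15 (0.00 with median ratio scaling), and with that scaling 15 of the 17 passed, the exceptions being Hsp90b1 and Pgpep1. The flanking genes Isyna1, Ssbp4 and Pgpep1 responded by 0.16, 0.62 and 0.57 in C3H and by -1.16, 0.06 and -0.15 in C57B.

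The response differed between the sexes for 3 of the 70 genes, where 1.44% of all genes had a higher and 0.365% a lower response in males. These 306 genes became 6 when only the mice of the comparison were fitted. As males minus females, the difference was 0.60 for Pcsk7, 0.69 for Bmp5 and 1.01 for Herpud1 (limma), and with median ratio scaling Herpud1 passed and Pcsk7 and Bmp5 did not. Herpud1 responded by 1.07 in males and 0.06 in females.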

How the results depend on the processing

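For Gdf15, the tested sex differences kept their direction and did not pass the threshold under any alternative, and the untested differences moved by less than the SD within groups (0.379 on the log2 scale), although the strain difference in the hyperoxia response, near 0, turned its sign without 7 of the mice (-0.22 to 0.14, with 0.14 without C57BF 44). With a pseudocount of 0.1, added after the results were seen, the hyperoxia difference was 5.81 in saline and 6.12 in ATG mice. The sex difference was between 0.08 and 0.20 (adjusted p from 0.237 to 0.599) and the sex difference in the hyperoxia response between 0.17 and 0.53 (adjusted p from 0.259 to 0.778). No paired analysis was possible because each mouse has its own number. Depth is unknown and limits what can be said of genes near 0, such as Gfral. The causes of the changes below were not tested.

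For ATG under hyperoxia, 5 p53 targets became 2 with a pseudocount of 0.1 and 3 with quantile normalization or median ratio scaling. The 2 NRF2 targets became 1 with either filter, quantile normalization or no trend, and 0 with median ratio scaling. The 3 chaperones became 1 with quantile normalization and 0 with median ratio scaling. For ATG in room air, 4 genes became 7 with a filter above 0. With only the mice of the comparison, 2982 genes for strain at baseline became 1832, 2994 for the strain difference became 1880, and 306 for the sex difference in the hyperoxia response became 6. The last was 192 and 188 with other filters and 174 with median ratio scaling. That scaling moved higher and lower calls from 914 and 2068 to 1501 and 1443 for strain at baseline.

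Leaving out each mouse in turn gave 2 to 284 genes for ATG in room air (284 without C3HM 2 and at most 10 without any other mouse), 530 to 1247 genes for ATG under hyperoxia (lowest without C57BM 24), 2150 to 4565 genes for strain at baseline and 2145 to 4032 for the strain difference (both highest without C3HM 2), 1723 to 3160 for sex and 43 (without C57BM 21) to 2368 (without C3HM 2) for the sex difference in the hyperoxia response. Of list members, it gave 0 to 2 chaperones for ATG in room air. For ATG under hyperoxia it gave 1 to 3 NRF2 targets, 1 to 4 chaperones, 0 to 2 stress response targets (2 without C57BM 21 or C57BF 44), 0 to 2 secreted factors (2 without C57BM 19 or C3HF 33), 3 to 8 p53 targets and 0 to 2 proteases. For hyperoxia it gave 0 to 1 receptors, the latter Ret without C3HM 1.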
